A study of Homo sapiens with 16 samples.

Results

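Interferon response genes are genes that many human cell types switch on when an interferon, a secreted antiviral protein, reaches them. The 50 genes described here were taken by name and cover signal transducers, RNA sensors, antiviral effectors, guanylate-binding proteins and immunoproteasome subunits. All 50 were found among the 64252 gene identifiers of the count tables. Messenger RNA was sequenced in Jurkat and 6T-CEM, both established cell lines from human T-cell leukaemias, carrying a short hairpin RNA against SH2D1A (sh-SH2D1A) or a control hairpin (sh-NC). Jurkat cells were sampled at days 8 and 10 and 6T-CEM cells at days 5 and 10, with 2 libraries for each line, day and hairpin, or 16 libraries in 8 groups. No interferon treatment is named in the labels. SH2D1A encodes SAP, a small adaptor protein of lymphocytes that works downstream of SLAM receptors. The labels do not say what the days are counted from, how many hairpins were used or whether paired libraries came from different cultures, so p-values here speak only of the spread among the libraries, which may be technical.

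Interferons bind receptors that carry JAK kinases, and the kinases phosphorylate STAT proteins. Under type I and type III interferon, STAT2 pairs with another STAT and with IRF9, and this complex binds a promoter element called the interferon-stimulated response element (ISRE). Under interferon gamma, a STAT dimer binds another element, the gamma-activated site (GAS), and IRF1, itself a product of that signal, extends the response to further genes such as GBP1 and the immunoproteasome subunits. The products bind, tag or degrade viral RNA and protein, and T cells keep many of them at a low level without infection.

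Total counts ranged from 27217899 to 33788024 per library, so 3 counts, the limit that a count of 0 allows, corresponded to 0.0888 to 0.110 CPM, counting error only. Levels below are CPM, each gene's share of its library's counts, after TMM scaling. The knockdown was present in every group: SH2D1A was between 49.4 and 80.7 CPM in the sh-SH2D1A libraries, against 154 to 204 CPM in the sh-NC libraries. The 50 genes summed to between 2032 and 2718 CPM per library. The 15 T cell identity genes summed to between 1552 and 4426 CPM. The summed markers of other cells stayed at 1.46 to 3.11 CPM for myeloid cells, 0.185 to 1.36 CPM for plasmacytoid dendritic cells, with CLEC4C at 0 in all libraries, and 0.127 to 11.0 CPM for natural killer cells, where NCAM1 in 6T-CEM held most of the sum and NCR1 was at 0 in all libraries. B cell markers summed to 16.6 to 75.7 CPM, of which CD79A held 15.2 to 74.0 CPM, epithelial markers to 1.11 to 5.72 CPM and erythroid markers to 0 to 2.70 CPM. The natural killer sum was 0.632 to 1.17 CPM with sh-SH2D1A and 0.127 to 0.181 CPM with sh-NC in Jurkat, and 9.21 to 11.0 CPM with sh-SH2D1A and 7.35 to 8.21 CPM with sh-NC in 6T-CEM. Within it, NCAM1 was called higher in Jurkat at days 8 and 10 (log2 changes 2.21 ± 0.56 and 2.48 ± 0.58). In 6T-CEM at day 10 NCAM1 did not pass (0.07 ± 0.15). KLRD1 was called higher there, at a mean of 1.78 CPM against 0.148 CPM (3.57 ± 0.47, edgeR adjusted p = 0.00182). The T cell sum was 3162 to 3244 CPM with sh-SH2D1A and 3883 to 3942 CPM with sh-NC in Jurkat at day 8, 3628 to 3979 CPM and 4144 to 4426 CPM at day 10, and 1661 to 1760 CPM and 1887 to 1935 CPM in 6T-CEM at day 10, and it overlapped in 6T-CEM at day 5. Its genes went both ways. In 6T-CEM at day 10 CD3G and TRBC2 were called higher, beside 6.61% of all genes. CD3D, CD247, CD5, CD7, ZAP70, TRAC, CD1A and CD1E were called lower there, beside 7.42%. TRBC1 was uneven, at 396 and 147 CPM in the Jurkat day 8 sh-NC libraries. The B cell sum was lower with sh-SH2D1A without overlap in all 4 comparisons, most in 6T-CEM at day 10, at 26.9 to 30.3 CPM with sh-SH2D1A and 44.6 to 45.4 CPM with sh-NC. In those cells the erythroid sum was 2.44 to 2.70 CPM with sh-SH2D1A and 0.875 to 0.910 CPM with sh-NC, and the myeloid sum 1.713 to 2.197 CPM with sh-SH2D1A and 2.52 to 3.11 CPM with sh-NC. Among the day 5 libraries of 6T-CEM, the myeloid, plasmacytoid dendritic and erythroid sums were higher with sh-SH2D1A without overlap, at up to 3.01 CPM. The part of these markers in the results below was not tested. Replicates were least alike in 6T-CEM at day 5 with sh-SH2D1A, where chi-square over its degrees of freedom was 22.0, while the other 7 groups had 4.66 to 9.37.

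Promoter windows were looked up for the members because the list is defined by a shared response. RefSeq windows on GRCh38.p14, from 250 bases before to 50 bases after a start, were matched for 40 of the 50 genes. The ISRE core, searched as GAAA, any 2 bases and GAAA again, stood on either strand in the windows of 26 of those 40 genes, or 65.0%, against 4.38% of the 27305 genes in the table. The GAS core, searched as TTC, any 3 bases and GAA, stood in 10 of the 40, or 25.0%, against 9.38%, and 6 genes held both. A match is a description of letters and not a binding site. The 150 bases before the start are shown for 6 genes whose messenger changed with sh-SH2D1A, with the matches in capitals. These 6 were picked by name, and each holds a match. Of the other members called in a knockdown comparison, EIF2AK2 and PARP14 also hold a match, and the windows of STAT2, ADAR and TRIM25 hold none. OAS2, TRIM22 and USP18 had no window. GBP1, IRF9 and ISG15 were called higher in 6T-CEM at day 10, OAS3 and PSMB10 were called lower in at least 1 comparison, and IRF1 was called higher in 6T-CEM at day 10 and lower in Jurkat at both days.
GBP1 (chr1:89065209-89065358, minus strand): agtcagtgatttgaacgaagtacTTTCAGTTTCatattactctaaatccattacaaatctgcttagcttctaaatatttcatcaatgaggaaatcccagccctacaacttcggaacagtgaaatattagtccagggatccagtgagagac
ISG15 (chr1:1013347-1013496, plus strand): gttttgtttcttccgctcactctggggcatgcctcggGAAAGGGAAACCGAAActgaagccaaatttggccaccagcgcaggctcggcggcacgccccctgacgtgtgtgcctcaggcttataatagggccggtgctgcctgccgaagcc
IRF1 (chr5:132490774-132490923, minus strand): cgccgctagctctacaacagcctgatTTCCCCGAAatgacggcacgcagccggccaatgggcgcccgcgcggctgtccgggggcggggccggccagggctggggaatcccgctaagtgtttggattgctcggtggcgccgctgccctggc
IRF9 (chr14:24161115-24161264, plus strand): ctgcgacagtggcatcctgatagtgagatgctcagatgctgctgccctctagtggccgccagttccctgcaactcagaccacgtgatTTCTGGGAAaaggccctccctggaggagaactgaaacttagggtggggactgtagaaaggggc
OAS3 (chr12:112938324-112938473, plus strand): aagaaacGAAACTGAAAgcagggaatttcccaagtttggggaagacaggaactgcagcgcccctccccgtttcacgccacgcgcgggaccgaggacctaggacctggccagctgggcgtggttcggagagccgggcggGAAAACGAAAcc
PSMB10 (chr16:67936851-67937000, minus strand): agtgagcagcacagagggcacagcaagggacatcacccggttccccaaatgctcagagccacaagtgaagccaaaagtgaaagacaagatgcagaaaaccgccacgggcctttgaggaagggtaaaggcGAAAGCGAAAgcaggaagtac
The stretches of GBP1, ISG15, OAS3 and PSMB10 hold the ISRE core, which in GBP1 reads on the opposite strand and in ISG15 is present as a pair of overlapping copies. Those of IRF1 and IRF9 hold the GAS core. Genes with the ISRE core therefore stood among both the higher and the lower members.

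Most of the list was expressed, with no interferon treatment named in the labels, and the lines shared nearly all of it. Every library carried a hairpin, so these are not levels of untreated cells. A gene was called silent in a line when all 8 libraries of that line were under 0.5 CPM, and detected when their mean was at least 1 CPM. By these limits 46 of the 50 genes were detected in both lines. IFI44L, a cytoplasmic protein of the antiviral response, was silent in Jurkat, with at most 0.162 CPM, and averaged 0.612 CPM in 6T-CEM, which is under the detection limit. MX1, a dynamin-like GTPase that blocks viral nucleocapsids, was silent in 6T-CEM and averaged 0.372 CPM in Jurkat. GBP4, a guanylate-binding protein, was also silent in 6T-CEM and averaged 0.339 CPM in Jurkat. So 0 members were silent in one line and detected in the other, and these 3 averaged under 1 CPM in both. IFI27 lay at the limit, at 1.11 CPM in Jurkat and 0.998 CPM in 6T-CEM. Per kilobase of exon, IFI16, a sensor of DNA, was the most abundant member in Jurkat at 68.6 CPM per kilobase, and ADAR, an RNA-editing enzyme, led in 6T-CEM at 69.9 CPM per kilobase.

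**Figure D1:**
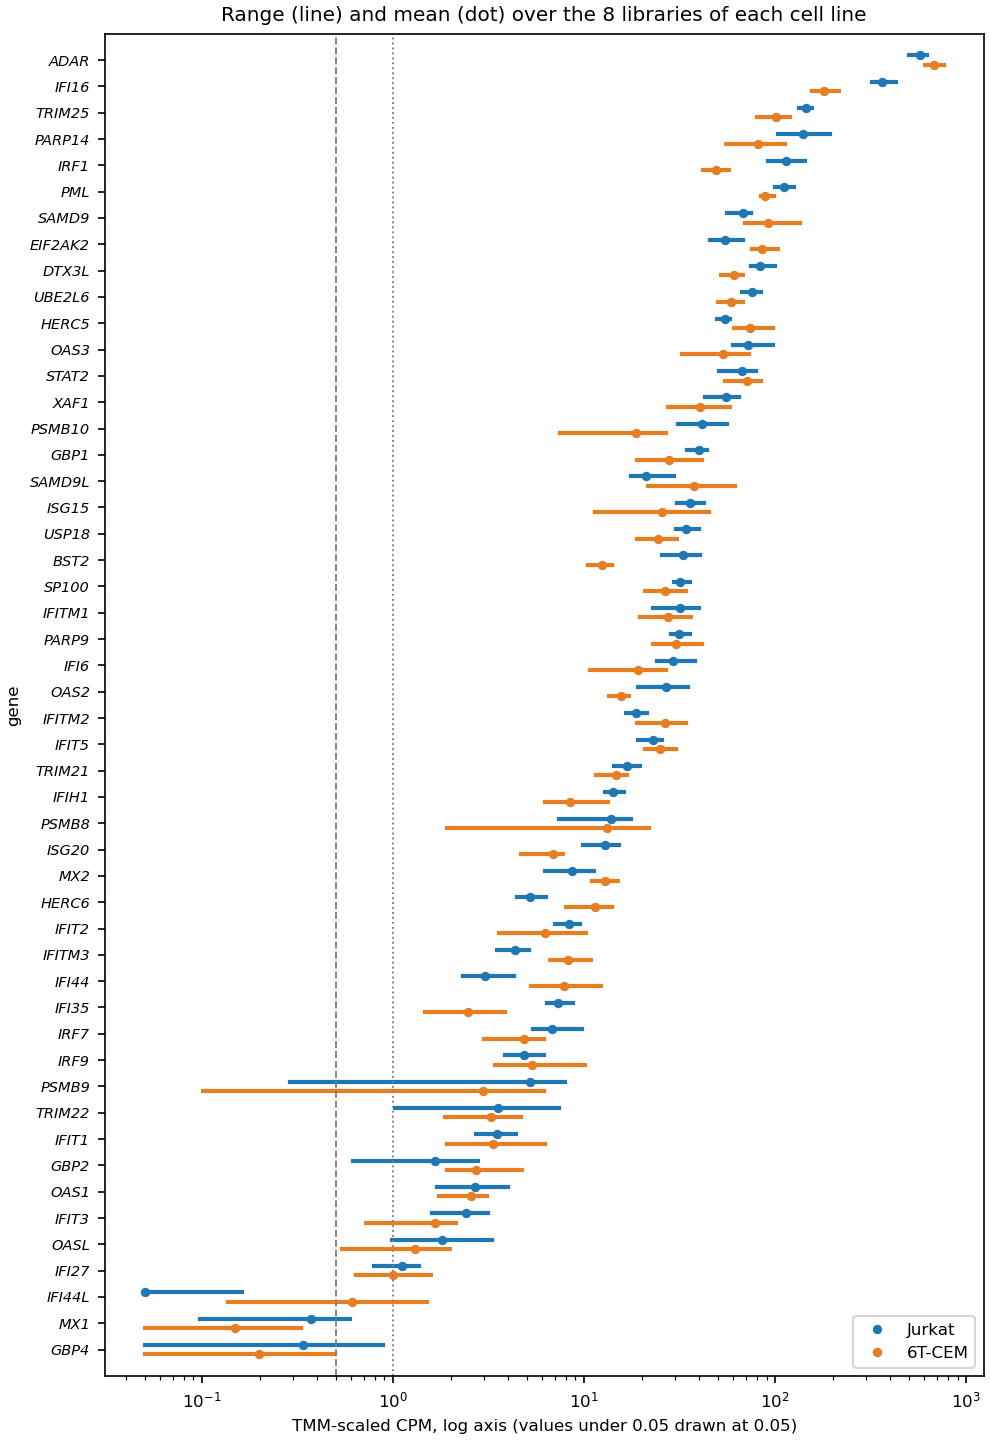
Level of each of the 50 genes in TMM-scaled CPM on a log axis, with Jurkat above 6T-CEM in each row, the line spanning the lowest to the highest of 8 libraries and the dot at their mean. The dashed line is the 0.5 CPM limit for silence and the dotted line the 1 CPM limit for detection, and IFI44L, MX1 and GBP4 are the 3 genes at the bottom, near or under both.

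The lines differed in level more than in which genes were on. In sh-NC at day 10, 29 of the 50 genes differed between Jurkat and 6T-CEM by the quasi-likelihood test of edgeR at an adjusted p under 0.05, against 36.6% of 22032 genes. Of these, 21 were higher in Jurkat, against 18.4% of all genes, and 8 were lower, against 18.2%. The library values did not overlap for 32 members higher in Jurkat, against 35.1% of all genes, and for 11 lower, against 36.0%. Over all 8 libraries of each line, and so with both hairpins and all days, the ranges did not overlap for 15 members. IRF1, ISG20, IFI16, IFI35, OAS2, TRIM25, BST2, DTX3L, PSMB10 and PML were higher in Jurkat, and IFI44, IFITM3, EIF2AK2, HERC5 and HERC6 were lower, that is 10 members higher, against 8.61% of all genes, and 5 lower, against 8.25%. PARP14, an ADP-ribosyltransferase, had 181 and 193 CPM in Jurkat sh-NC at day 10, against 55.4 and 55.8 CPM in 6T-CEM (log2 difference 1.75 ± 0.08 SE, edgeR adjusted p = 1.88e-09). IRF1 had 144 and 133 CPM in Jurkat and 47.6 and 47.9 CPM in 6T-CEM (1.54 ± 0.09, adjusted p = 7.97e-09). BST2, or tetherin, which holds budding virions at the cell surface, had 40.2 and 33.6 CPM in Jurkat and 12.5 and 11.7 CPM in 6T-CEM (1.61 ± 0.15, adjusted p = 1.52e-06). HERC6, a HECT-type ubiquitin ligase, ran the other way, with 5.66 and 4.83 CPM in Jurkat and 13.0 and 12.9 CPM in 6T-CEM (-1.30 ± 0.19, adjusted p = 0.000111). IFI44L had 0 and 0 counts in Jurkat sh-NC at day 10 and 15 and 16 counts in 6T-CEM, so it was at least 4.77-fold lower in Jurkat against a floor of 3 counts per library.

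Members also differed between days within the sh-NC cells. Each line and day had libraries and a deposited table of its own, so line and day cannot be told apart from library preparation. In 6T-CEM, day 10 against day 5, 17 of 50 were called, against 39.9% of 22032 genes, with 8 higher, against 19.3%, and 9 lower, against 20.6%. The day 10 values did not overlap those of day 5 for 19 members higher, against 34.3% of all genes, and 18 lower, against 35.9%. ISG15, the ubiquitin-like modifier, had 30.1 and 36.5 CPM at day 10, against 11.6 and 11.4 CPM at day 5 (log2 change 1.53 ± 0.15, edgeR adjusted p = 3.58e-06). PSMB10, an immunoproteasome subunit, had 25.9 and 26.0 CPM at day 10 and 12.2 and 11.9 CPM at day 5 (1.11 ± 0.19, adjusted p = 0.000386). IFI6, PSMB8, IFITM1, IFITM2, OAS3 and TRIM25 were also higher at day 10. PARP14 had 55.4 and 55.8 CPM at day 10 and 106 and 105 CPM at day 5 (-0.93 ± 0.08, adjusted p = 1.57e-06). SAMD9L, an antiviral and growth-restricting factor, had 25.5 and 21.6 CPM at day 10 and 40.4 and 45.5 CPM at day 5 (-0.87 ± 0.15, adjusted p = 0.000372). STAT2, IFI16, IFIT1, IFIT5, SAMD9, SP100 and HERC5 were also lower at day 10. In Jurkat sh-NC, day 10 against day 8, 3 members were higher and 0 lower by edgeR, against 3.4% of all genes called (1.83% higher and 1.57% lower), with 11 of 50 at an unadjusted p under 0.05 and 6 called by DESeq2. The 3 were PARP14 at 0.62 ± 0.08 (adjusted p = 0.0013), IFITM1 at 0.56 ± 0.10 (adjusted p = 0.00989) and OAS3 at 0.50 ± 0.08 (adjusted p = 0.00586). Day 10 values lay above those of day 8 without overlap for 26 members, against 24.9% of all genes, and below for 5, against 24.1%. PARP14 was thus higher at the later day in Jurkat and lower at the later day in 6T-CEM, though the earlier days differ.

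With sh-SH2D1A the list did not move as a block. In Jurkat at day 8, 2 of the 48 members tested rose and 4 fell, or 12.5%, beside 12.4% of all 19266 genes (5.23% higher and 7.13% lower). In Jurkat at day 10, 5 of 49 fell and no member was called higher, or 10.2%, beside 3.78% of 19079 genes (1.26% higher and 2.52% lower). In 6T-CEM at day 5, 0 of 47 were called by edgeR, beside 2.11% of 19482 genes (0.606% higher and 1.51% lower), while 12 were at an unadjusted p under 0.05 and DESeq2 called OAS3, GBP1 and HERC5. At day 10 in 6T-CEM, 7 of 48 rose and 2 fell, or 18.8%, beside 14.0% of 19610 genes (6.61% higher and 7.42% lower). The median log2 change of the members was -0.09, -0.06, 0.08 and 0.07 in these 4 comparisons in the order given, and that of all genes tested lay between -0.003 and 0.004. Members passed the low-count filter in part through the group where they were high, so these counts do not cover all 50 genes. The sh-SH2D1A libraries lay wholly above the sh-NC libraries for 9 members in Jurkat at day 8 and wholly below for 17, beside 29.1% and 28.3% of all genes. At day 10 the counts were 10 above and 18 below in Jurkat, beside 24.2% and 24.5%. They were 15 above and 6 below in 6T-CEM at day 5, beside 23.3% and 25.3%, and 20 above and 9 below at day 10, beside 28.1% and 28.7%. Altogether 14 members were called in at least 1 of the 4 comparisons, of which 9 in 1, 4 in 2 and 1 in 3, beside 20.4% of the 21377 genes tested in at least 1.

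**Figure D2:**
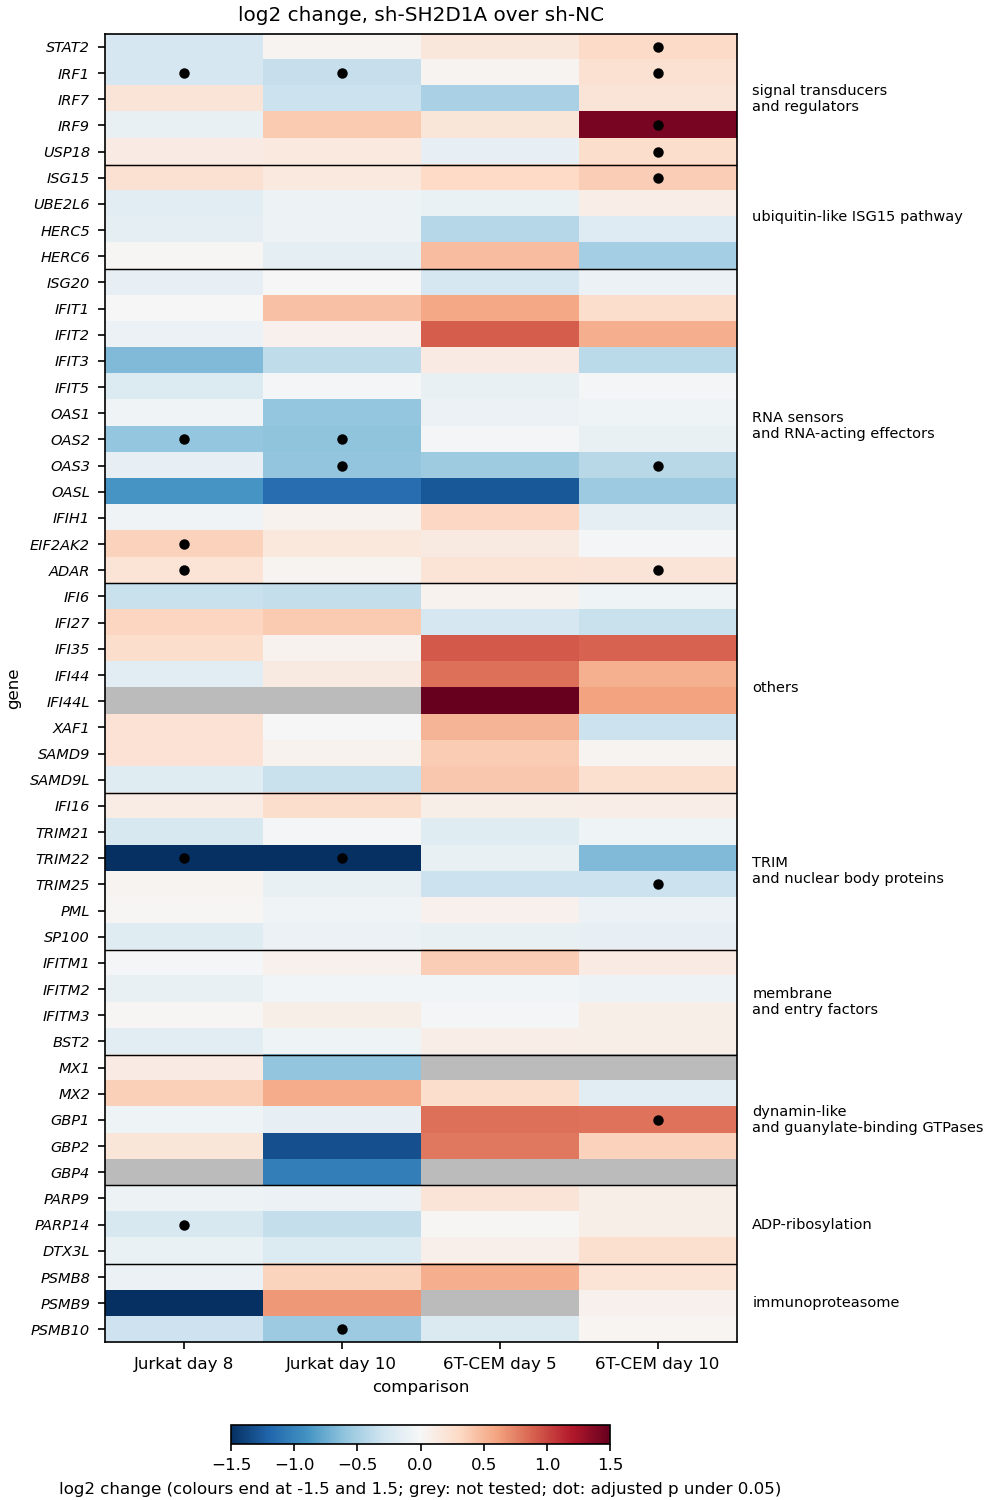
Log2 change of each of the 50 genes, sh-SH2D1A over sh-NC, in 4 comparisons, with red for higher and blue for lower with sh-SH2D1A, grey for genes not tested and a black dot where the edgeR adjusted p was under 0.05. Of the 9 dots on red cells, 7 are in 6T-CEM at day 10, and dots on blue cells stand at IRF1, OAS2, OAS3, TRIM22, TRIM25, PARP14 and PSMB10.

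Of the 5 signal transducers and regulators, 4 rose in 6T-CEM at day 10, beside 6.61% of all genes called higher, and IRF7 did not pass. In each Jurkat comparison 1 of the 5 fell, IRF1, beside 7.13% of all genes called lower at day 8 and 2.52% at day 10, and none was called higher. The 5 are STAT2, IRF9, IRF1, the transcription factor IRF7 and USP18, the protease that removes ISG15 and dampens receptor signalling. IRF9, the DNA-binding subunit of the STAT complex, had 10.1 and 8.90 CPM with sh-SH2D1A and 3.40 and 3.70 CPM with sh-NC (log2 change 1.42 ± 0.17, edgeR adjusted p = 0.0013). The pair of sh-SH2D1A libraries stood above all 14 other libraries of the study, which lay between 3.40 and 6.14 CPM. The annotated span of IRF9 overlaps AL136295.5 on the same strand, which had 42.1 and 38.6 CPM with sh-SH2D1A and 28.2 and 28.3 CPM with sh-NC (0.52 ± 0.07, adjusted p = 0.00271), so the split of reads between the genes is uncertain. The sum of both was 52.1 and 47.5 CPM with sh-SH2D1A, against 31.6 and 31.9 CPM with sh-NC. STAT2 had 70.1 and 66.0 CPM with sh-SH2D1A and 57.6 and 54.4 CPM with sh-NC in these cells (0.29 ± 0.06, adjusted p = 0.0129). USP18 had 30.5 and 30.6 CPM with sh-SH2D1A, against 25.4 and 25.4 CPM with sh-NC (0.27 ± 0.07, adjusted p = 0.0481). The groups did not overlap for these 3 genes. The STAT2 call was lost with all 16 libraries in the fit, with no count filter or without sh-NC replicate 2, and that of USP18 under 7 of 10 alternatives, among them leaving out any of its 4 libraries.

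IRF1 was the only member called in 3 comparisons, and its direction differed between the lines. In 6T-CEM at day 10 it had 54.7 and 57.4 CPM with sh-SH2D1A, against 47.6 and 47.9 CPM with sh-NC (0.23 ± 0.06, edgeR adjusted p = 0.0267). In Jurkat it had 92.0 and 98.3 CPM with sh-SH2D1A and 111 and 113 CPM with sh-NC at day 8 (-0.25 ± 0.06, adjusted p = 0.027). At day 10 Jurkat cells had 110 and 107 CPM with sh-SH2D1A, against 144 and 133 CPM with sh-NC (-0.35 ± 0.08, adjusted p = 0.0418). In each of these comparisons the groups did not overlap, while at day 5 in 6T-CEM they did. The difference between the lines at day 10 was -0.58 ± 0.12 (adjusted p = 0.035), and it no longer passed when any of the 8 libraries was left out. Single libraries also ended the 3 calls: either sh-SH2D1A library at day 8 in Jurkat, either sh-SH2D1A library or sh-NC replicate 1 at day 10 in Jurkat, and either sh-NC library or sh-SH2D1A replicate 2 in 6T-CEM. All 3 calls were also lost with no filter on low counts, and the earlier Jurkat call and the 6T-CEM call also with all 16 libraries in the fit. C5orf56, which overlaps IRF1 on the other strand, changed by -0.48 ± 0.09 in Jurkat at day 10 (adjusted p = 0.0143) and by -0.14 in 6T-CEM at day 10 (not passed), and the strand setting of the counting is not given in the sources used here. IRF7 was between 2.98 and 9.75 CPM in all libraries and passed in no knockdown comparison.

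**Figure D3:**
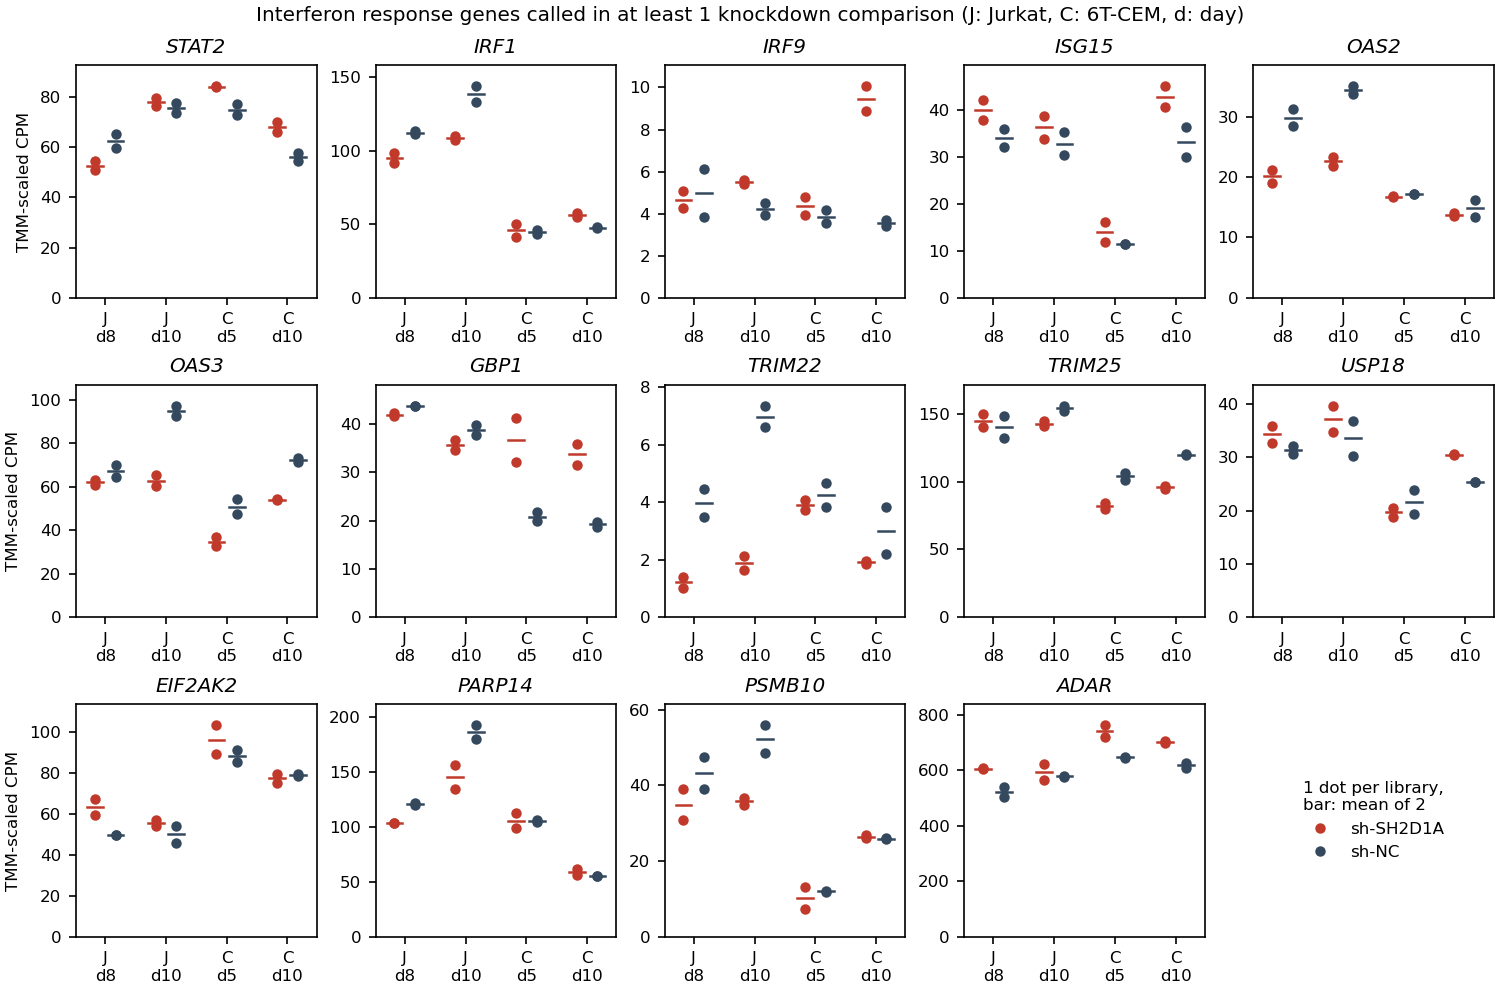
TMM-scaled CPM of the 14 genes called in at least 1 knockdown comparison, 1 dot per library and a bar at the mean of 2, with sh-SH2D1A in red to the left of sh-NC in dark blue for each line and day. IRF9 stands out in 6T-CEM at day 10 and TRIM22 in both Jurkat comparisons, while IRF1 is lower with sh-SH2D1A in Jurkat and higher in 6T-CEM at day 10.

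The ISG15 conjugation pathway attaches ISG15 to proteins through the conjugating enzyme UBE2L6 and the ligase HERC5. ISG15 had 40.6 and 45.1 CPM with sh-SH2D1A in 6T-CEM at day 10, against 30.1 and 36.5 CPM with sh-NC (0.37 ± 0.10, edgeR adjusted p = 0.0422). The groups did not overlap, but the call was lost without sh-NC replicate 1 or sh-SH2D1A replicate 2, with no filter and with all 16 libraries in the fit. Averaged over the 4 comparisons in a fit of all 16 libraries, ISG15 was higher by 0.26 ± 0.07 (adjusted p = 0.0198) and HERC5 lower by a log2 change of -0.21 ± 0.04 (adjusted p = 0.00147). HERC5 had 67.4 and 72.8 CPM with sh-SH2D1A in 6T-CEM at day 5, against 91.9 and 97.5 CPM with sh-NC, its widest gap, which did not pass in that comparison alone (-0.42 ± 0.12, adjusted p = 0.124). UBE2L6, at up to 83.9 CPM, and HERC6, at 4.43 to 14.0 CPM, passed in no knockdown comparison and not in the mean. So in the mean the modifier was higher and its ligase lower, but edgeR called HERC5 in no single knockdown comparison. The mean of ISG15 no longer passed without any of 6 single libraries, among them 6T-CEM day 10 sh-NC replicate 1.

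Among the 12 RNA sensors and RNA-acting effectors, OAS2, OAS3 and OASL were lower and ADAR, EIF2AK2 and IFIT2 higher with sh-SH2D1A in the mean of the 4 comparisons. OAS enzymes make the 2',5'-linked oligoadenylates that activate RNase L. OAS3 had 53.8 and 54.3 CPM with sh-SH2D1A in 6T-CEM at day 10, against 73.1 and 71.4 CPM with sh-NC (-0.42 ± 0.05, edgeR adjusted p = 0.001). At day 5 in 6T-CEM it had 32.6 and 36.9 CPM with sh-SH2D1A and 47.4 and 54.3 CPM with sh-NC, a change of similar size that did not pass (-0.54 ± 0.15, adjusted p = 0.111). In Jurkat at day 10 it had 60.4 and 65.3 CPM with sh-SH2D1A, against 97.3 and 92.8 CPM with sh-NC (-0.59 ± 0.09, adjusted p = 0.0044), a call lost with no filter on low counts. All sh-SH2D1A libraries were below the sh-NC libraries of the same line and day. In Jurkat at day 8 the gap was small, with 63.3 and 60.9 CPM against 69.9 and 64.4 CPM (-0.12 ± 0.07, not passed): the sh-SH2D1A level was alike at both days, and the sh-NC level was higher at day 10. The difference between those days was -0.48 ± 0.12 and did not pass (adjusted p = 0.432).

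OAS2 fell in Jurkat. It had 21.2 and 19.0 CPM with sh-SH2D1A and 31.2 and 28.5 CPM with sh-NC at day 8 (-0.58 ± 0.10, edgeR adjusted p = 0.0111). At day 10 it had 21.8 and 23.4 CPM with sh-SH2D1A, against 33.7 and 35.0 CPM with sh-NC (-0.60 ± 0.11, adjusted p = 0.0137). In 6T-CEM, where it lay between 13.5 and 17.2 CPM, it changed by -0.03 and -0.11 at days 5 and 10 (neither passed). The Jurkat calls were lost with no filter, without sh-SH2D1A replicate 2 at day 8 and without sh-SH2D1A replicate 1 at day 10. The difference between the lines at day 10 was -0.49 ± 0.16 and did not pass (adjusted p = 0.27). OASL, an OAS relative that lacks the enzyme activity, was low, between 0.538 and 3.28 CPM. In Jurkat at day 10 it had 1.04 and 1.48 CPM with sh-SH2D1A, against 3.28 and 2.27 CPM with sh-NC. Its sh-SH2D1A libraries were below those with sh-NC in all 4 comparisons, each of which missed the threshold, and the mean of the 4 changes passed at -0.96 ± 0.19 (adjusted p = 0.0021). OAS1, at 1.70 to 4.01 CPM, had negative changes in all 4 comparisons with no call.

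ADAR edits adenosine to inosine in double-stranded RNA and limits its sensing. 6T-CEM cells at day 10 had 700 and 707 CPM with sh-SH2D1A, against 608 and 627 CPM with sh-NC (0.19 ± 0.03, edgeR adjusted p = 0.00317). Jurkat cells at day 8 had 607 and 606 CPM with sh-SH2D1A and 542 and 503 CPM with sh-NC (0.21 ± 0.05, adjusted p = 0.0462). The changes were small, and the groups did not overlap in 3 of the 4 comparisons, Jurkat at day 10 being the exception. EIF2AK2, or PKR, the kinase that halts translation on double-stranded RNA, had 59.5 and 67.4 CPM with sh-SH2D1A in Jurkat at day 8, against 49.9 and 49.7 CPM with sh-NC (0.34 ± 0.08, adjusted p = 0.0259). Its other changes were between -0.03 and 0.15 with no call, and its mean change passed at 0.15 ± 0.05 (adjusted p = 0.0376), although not with no filter or in 10 of the 16 fits that each left out 1 library. The Jurkat day 8 calls of ADAR and EIF2AK2 were lost with no filter on low counts and without sh-SH2D1A replicate 2, and that of ADAR also without sh-SH2D1A replicate 1. The ADAR call in 6T-CEM was lost only with all 16 libraries in the fit.

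The IFIT genes encode antiviral proteins, some of which bind viral RNA, and did not share a direction. IFIT2 had 10.2 and 9.08 CPM with sh-SH2D1A in 6T-CEM at day 5, against 4.32 and 6.02 CPM with sh-NC (0.91 ± 0.27, edgeR adjusted p = 0.126). At day 10 it had 5.35 and 6.64 CPM with sh-SH2D1A and 3.57 and 4.68 CPM with sh-NC (0.54 ± 0.21, adjusted p = 0.14). The groups did not overlap at either day, and the mean over the 4 comparisons passed at 0.36 ± 0.10 (adjusted p = 0.0178), but not without 6T-CEM day 10 sh-NC replicate 1 or sh-SH2D1A replicate 2. IFIT1, IFIT3 and IFIT5 passed nowhere among the knockdown comparisons, with IFIT1 between 1.92 and 6.22 CPM, IFIT3 between 0.721 and 3.12 CPM and IFIT5 between 19.1 and 30.3 CPM. IFIH1, or MDA5, a sensor of long double-stranded RNA, and the exonuclease ISG20 were also not called, with changes between -0.26 and 0.31. The annotated spans of IFIT1, IFIT2 and IFIT3 overlap that of LIPA on the other strand, which had 48.3 to 80.1 CPM and no call.

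Of the TRIM and nuclear body proteins, TRIM22, a restriction factor of retroviruses, fell in Jurkat. It had 1.41 and 1.02 CPM with sh-SH2D1A and 3.499 and 4.461 CPM with sh-NC at day 8 (-1.71 ± 0.28, edgeR adjusted p = 0.00878). At day 10 it had 1.66 and 2.13 CPM with sh-SH2D1A, against 6.61 and 7.35 CPM with sh-NC (-1.88 ± 0.24, adjusted p = 0.00218). The groups were far apart at both days, although the day 8 call was lost without sh-SH2D1A replicate 2 and the day 10 call with no filter. Among the 6T-CEM groups at day 10 it had 1.95 and 1.86 CPM with sh-SH2D1A and 2.19 and 3.83 CPM with sh-NC (-0.66 ± 0.30, adjusted p = 0.202). So the sh-NC libraries of Jurkat at day 10 held the highest TRIM22 of the study, and with sh-SH2D1A the lines at day 10 were close, at a log2 difference of -0.01 for Jurkat over 6T-CEM, against 1.21 ± 0.27 in sh-NC (adjusted p = 0.00295). The difference of the knockdown change between the lines was -1.22 ± 0.40 and did not pass (adjusted p = 0.262). TRIM5 overlaps TRIM22 on the other strand. In Jurkat TRIM5 changed by -0.22 ± 0.08 at day 8 and -0.29 ± 0.11 at day 10 (neither passed). Its part in the TRIM22 counts was not tested.

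TRIM25, the ubiquitin ligase that helps activate the RNA sensor RIG-I, fell in 6T-CEM at day 10 with 94.6 and 96.9 CPM with sh-SH2D1A, against 120.1 and 119.8 CPM with sh-NC (-0.32 ± 0.04, edgeR adjusted p = 0.00103). At day 5 it had 79.9 and 84.3 CPM with sh-SH2D1A and 101 and 106 CPM with sh-NC (-0.33 ± 0.12, adjusted p = 0.202). DGKE, which overlaps TRIM25 on the other strand, changed by -0.32 ± 0.05 (adjusted p = 0.00609) and -0.76 ± 0.12 (adjusted p = 0.0179) at days 10 and 5, and its part in the TRIM25 counts was not tested. IFI16 had 416 and 427 CPM with sh-SH2D1A in Jurkat at day 10, against 330.1 and 375 CPM with sh-NC (0.26 ± 0.08, adjusted p = 0.119). Its mean change of 0.14 ± 0.04 passed (adjusted p = 0.0358), although not in 12 of the 16 fits that each left out 1 library. TRIM21, PML and SP100, the last 2 being organisers of nuclear bodies, were not called, with changes between -0.23 and 0.07.

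Guanylate-binding proteins are GTPases that attack vacuoles and membranes of intracellular microbes, and GBP1 rose in 6T-CEM. It had 36.0 and 31.5 CPM with sh-SH2D1A at day 10, against 18.8 and 19.7 CPM with sh-NC (0.81 ± 0.09, edgeR adjusted p = 0.000918). At day 5 it had 32.3 and 41.3 CPM with sh-SH2D1A and 19.9 and 21.8 CPM with sh-NC, a change of the same size just outside the threshold (0.83 ± 0.18, adjusted p = 0.053). In Jurkat it had 34.6 and 36.8 CPM with sh-SH2D1A at day 10, against 37.8 and 39.8 CPM with sh-NC (-0.12 ± 0.10, not passed). The 6T-CEM sh-NC libraries therefore had the lowest GBP1 of the study, and those with sh-SH2D1A, at 31.5 to 41.3 CPM, overlapped the Jurkat libraries. The difference of the change between the lines at day 10 was -0.93 ± 0.16 (adjusted p = 0.0123), which passed in 4 of 8 fits that each left out 1 library. GBP2 lay between 0.618 and 4.71 CPM and MX2 between 6.21 and 15.0 CPM, and neither was called. MX1 and GBP4 were too low for a test in 6T-CEM.

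**Figure D4:**
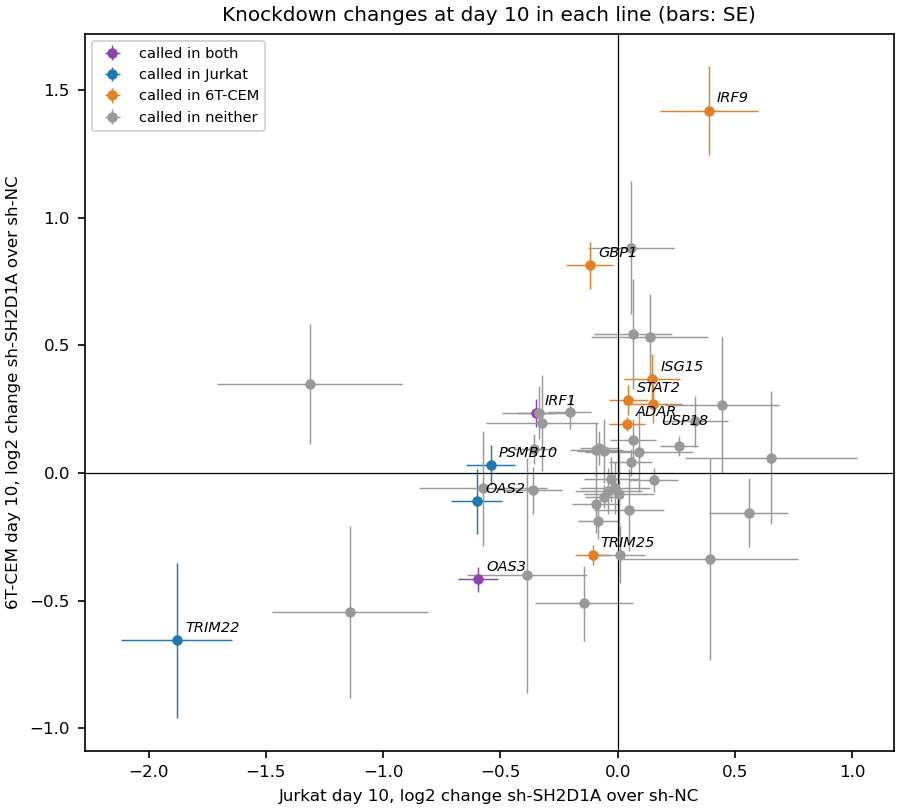
Log2 change at day 10, sh-SH2D1A over sh-NC, of each gene tested in both lines, Jurkat on the horizontal axis and 6T-CEM on the vertical, with bars of 1 standard error and names for genes called in at least 1 line. IRF9 and GBP1 are high on the vertical axis, TRIM22 lies far left, OAS3 is called lower in both lines and IRF1 is called lower in Jurkat and higher in 6T-CEM.

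The ADP-ribosylation genes were called once. PARP14 had 103.6 and 103.6 CPM with sh-SH2D1A in Jurkat at day 8, against 122 and 120.2 CPM with sh-NC (-0.23 ± 0.05, edgeR adjusted p = 0.023), a call lost under 5 of 10 alternatives, among them leaving out either sh-SH2D1A library. At day 10 it had 135 and 156 CPM with sh-SH2D1A and 181 and 193 CPM with sh-NC (-0.36 ± 0.09, adjusted p = 0.0592). PARP9 and its partner DTX3L were not called, with changes between -0.20 and 0.24. Immunoproteasome subunits replace the standard catalytic subunits and alter the peptides offered to class I molecules. PSMB10 had 36.7 and 34.8 CPM with sh-SH2D1A in Jurkat at day 10, against 55.9 and 48.5 CPM with sh-NC (-0.54 ± 0.10, adjusted p = 0.019). The call was lost with no filter, without sh-NC replicate 1 and with all 16 libraries in the fit. AC040162.1, which overlaps PSMB10 on the same strand, changed by -0.23 ± 0.19 in Jurkat at day 10 (not passed). The split of reads between them is uncertain. PSMB9 varied within groups, with 0.288 and 3.51 CPM with sh-SH2D1A and 5.95 and 7.44 CPM with sh-NC in Jurkat at day 8, and with 0.101 and 0.264 CPM against 0.102 and 2.51 CPM in 6T-CEM at day 5. PSMB8 had 1.91 and 8.57 CPM in the 6T-CEM day 5 sh-NC libraries. Replicates of these genes were unequal, and neither was called in a knockdown comparison. PSMB9 was not tested in 6T-CEM at day 5.

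Of the remaining members, IFI35 and SAMD9 passed in the mean only. IFI35 had 3.87 and 3.16 CPM with sh-SH2D1A in 6T-CEM at day 10, against 2.22 and 1.60 CPM with sh-NC (0.88 ± 0.26, edgeR adjusted p = 0.06), and its mean change was 0.53 ± 0.11 (adjusted p = 0.00291). SAMD9, a paralogue of SAMD9L, had 116 and 135 CPM with sh-SH2D1A in 6T-CEM at day 5, against 95.6 and 99.0 CPM with sh-NC, and a mean change of 0.17 ± 0.05 (adjusted p = 0.016). IFI44L was called in the mean as well, but from few reads: it had 17 and 40 counts with sh-SH2D1A in 6T-CEM at day 5, against 4 and 4 counts with sh-NC, and in Jurkat 4, 2, 5 and 0 counts with sh-SH2D1A, against 0 in all sh-NC libraries. IFI44, IFI6, IFI27, XAF1 and SAMD9L were not called in any knockdown comparison, nor were the membrane factors IFITM1, IFITM2, IFITM3 and BST2, which restrict viral entry or release. The changes of those 4 lay between -0.16 and 0.37. IFITM1 and IFITM2 overlap on the same strand, so reads may be split between them.

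Over the mean of the 4 changes, 10 of 50 members rose and 7 fell, or 34.0%, beside 23.0% of 22032 genes (10.7% higher and 12.3% lower). Higher were IRF9, ISG15, IFI16, IFI35, IFI44L, IFIT2, GBP1, EIF2AK2, SAMD9 and ADAR, and lower were OAS2, OAS3, OASL, TRIM22, TRIM25, PARP14 and HERC5. A mean can pass where the lines differ in direction, as they did for GBP1 and PARP14 at day 10. Of the 46 members tested in all 4 comparisons, 5 had a positive change in each (IFI16, IFI35, ISG15, SAMD9 and ADAR), beside 17.5% of all genes, and 10 a negative one, beside 18.3%. The 10 were OAS1, OAS2, OAS3, OASL, TRIM21, TRIM22, SP100, HERC5, IFIT5 and IFITM2. OAS3 had the lowest adjusted p of the members in the mean, at -0.42 ± 0.04 (edgeR adjusted p = 7.98e-06). The change between the lines at day 10 differed for 2 members, IRF1 and GBP1, both lower in Jurkat, beside 0.812% of genes called (0.517% higher and 0.295% lower). The change between days differed for 0 members in 6T-CEM and 0 in Jurkat by edgeR, beside 0.681% and 0.00454% of genes, with 6 and 3 members at an unadjusted p under 0.05 and 2 and 0 called by DESeq2.

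The pathway upstream of the members was read from separate lists of its ligands, receptors and kinases. Of 15 interferon genes, only IFNG passed the count filter, in 6T-CEM at day 10, where it had 12 and 16 counts with sh-SH2D1A and 0 and 0 with sh-NC. It passed the filter only through the group where it was high, so its counts are given as a description without a test. At day 5 IFNG in 6T-CEM had 4 and 5 counts with sh-SH2D1A and 0 and 2 with sh-NC, and in Jurkat it had 0 in all libraries. So the gene for interferon gamma had at most 16 reads in any library. The 9 receptors and JAK kinases were called in 0 of the 4 knockdown comparisons by edgeR. The shares of all genes called were 12.4% and 3.78% in Jurkat at days 8 and 10, and 2.11% and 14.0% in 6T-CEM at days 5 and 10. At an unadjusted p under 0.05 were 1, 2, 1 and 4 of the 9 genes, in the same order. DESeq2 called 1 in 6T-CEM at day 5 and 3 at day 10. IFNAR2, a chain of the type I receptor, had 120.0 and 119.8 CPM with sh-SH2D1A in 6T-CEM at day 10, against 109.5 and 111 CPM with sh-NC (0.12 ± 0.04, adjusted p = 0.0611). It was the 1 gene of the 9 that passed in the mean of the 4 changes, at 0.18 ± 0.03 (adjusted p = 0.0012), beside 23.0% of all genes.

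Of the regulators outside the member list, NLRC5 also had opposite calls in the lines. NLRC5, the activator of class I genes, had 61.5 and 61.4 CPM with sh-SH2D1A in 6T-CEM at day 10, against 34.3 and 35.4 CPM with sh-NC (0.82 ± 0.06, edgeR adjusted p = 7.29e-05). In Jurkat at day 8 it had 36.8 and 34.2 CPM with sh-SH2D1A and 58.0 and 50.1 CPM with sh-NC (-0.61 ± 0.09, adjusted p = 0.00637). IRF2, a repressor that competes with IRF1 for its sites, had log2 changes of -0.50 ± 0.09 at day 8 (adjusted p = 0.0123) and -0.46 ± 0.10 at day 10 (adjusted p = 0.0329) in Jurkat, both called. Its changes of -0.45 and -0.27 at days 5 and 10 in 6T-CEM did not pass, and its mean change did, at -0.42 ± 0.05 (adjusted p = 1.85e-05). The IRF2 calls in Jurkat were lost when either sh-SH2D1A library was left out at day 8, and either sh-NC library or sh-SH2D1A replicate 1 at day 10. IRF2BP2, a corepressor of IRF2, fell in 6T-CEM to 149.6 and 147.7 CPM with sh-SH2D1A at day 10, against 256 and 263 CPM with sh-NC (-0.80 ± 0.03, adjusted p = 7.2e-06), and was also called lower in 6T-CEM at day 5 and in Jurkat at day 8. Of 45 further interferon-induced genes, 2 rose and 7 fell of 40 tested in Jurkat at day 8, or 22.5%, beside 12.4% of all genes. At day 10 in Jurkat 0 rose and 5 fell of 39, or 12.8%, beside 3.78%, and in 6T-CEM 4 rose and 5 fell of 40, or 22.5%, beside 14.0%. LGALS3BP, a secreted galectin ligand, had 29.2 and 27.1 CPM with sh-SH2D1A in 6T-CEM at day 10, against 14.3 and 14.9 CPM with sh-NC (0.95 ± 0.09, adjusted p = 0.000438). SLFN5, a Schlafen family member, had 40.4 and 42.4 CPM with sh-SH2D1A in Jurkat at day 8, against 75.1 and 65.1 CPM with sh-NC (-0.77 ± 0.08, adjusted p = 0.00213). At day 5 in 6T-CEM, 0 of 41 such genes were called by edgeR, beside 2.11% of all genes, with 8 at an unadjusted p under 0.05 and 3 called by DESeq2.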

How the data were processed

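Messenger RNA of 16 libraries was measured as read counts per gene. Per the labels' protocols, total RNA was extracted with TRIzol and libraries were made with a TruSeq kit; per the submitters' processing notes, HISAT2 2.2.0, StringTie and hg38 were used. The authors deposited 4 tables of raw counts; the sources used here do not give the annotation, strand setting or counting step, so reads of overlapping genes cannot be told apart. Here edgeR 4.0.16 in R 4.3.3 was run on each table over all genes: genes passing filterByExpr with a minimum count of 10 were kept, TMM-scaled and tested by the quasi-likelihood test, with Benjamini-Hochberg adjustment over all genes tested and a threshold of 0.05. Values after ± are standard errors on the log2 scale, n = 2 libraries per group. A fit of all 16 libraries in 8 groups gave the mean of the 4 knockdown changes, the differences between them, and the line and day contrasts within sh-NC. Levels are TMM-scaled CPM, which can be compared between genes only per length. The edgeR steps were checked on simulated counts. DESeq2 1.42.0, other filters, a replicate block and leaving out each library were the alternatives. Gene spans and the names of overlapping genes came from GENCODE 29, and promoter windows from RefSeq on GRCh38.p14. The other gene symbols came from a separate reference list of gene names. The 50 members and the wider lists were chosen with earlier results of these data known. Values per library are given for members called in a knockdown comparison or in the mean, and for up to 4 genes of each wider list with the lowest adjusted p in a comparison. Some genes of the pathway are not reported here.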

Additional observations from a re-analysis of the deposited data

Results flagged for a closer look

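These results stood out because a test of the difference itself passed between lines or between days; each is the sh-SH2D1A over sh-NC log2 change in one setting minus that in the other, with its standard error and edgeR adjusted p from the fit of all 16 libraries. Between Jurkat and 6T-CEM at day 10, the difference was -0.58 ± 0.12 for IRF1 (adjusted p = 0.035) and -0.93 ± 0.16 for GBP1 (adjusted p = 0.0123). It was -1.58 ± 0.22 for NLRC5 (adjusted p = 0.00261), -0.81 ± 0.16 for LGALS3BP (adjusted p = 0.0277) and -0.67 ± 0.11 for APOL6, an apolipoprotein L family member (adjusted p = 0.0102). IRF2BP2 ran the other way, at 0.64 ± 0.11 (adjusted p = 0.00981), its fall being larger in 6T-CEM. Between day 10 and day 5 in 6T-CEM, the difference was 1.15 ± 0.22 for NLRC5 (adjusted p = 0.0326), 1.28 ± 0.20 for EPSTI1, an interferon-induced gene (adjusted p = 0.0106), and -0.74 ± 0.14 for STING1, the adaptor of cytosolic DNA sensing (adjusted p = 0.0302). IRF1 and GBP1 are members of the list, and the other 6 genes come from the wider lists. The IRF1 and GBP1 differences between the lines depended on single libraries, as described above, and this dependence is not given here for the other 6 genes.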

How the results depend on the processing

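The counts below are given without the share of all genes called under the same alternative. A shift in a count is therefore not a result about the members. With no filter on low counts, called members numbered 1 in Jurkat at day 8 (6 as reported) and 0 at day 10 (5), while 6T-CEM had 5 at day 10 (9). With all 16 libraries in the fit they were 11 in 6T-CEM at day 5 (0) and 5 at day 10 (9). In 6T-CEM at day 5 they were also 3 with DESeq2, 1 with 10 counts in every library of a group and 9 with the replicate block. DESeq2 called 4 members for the line difference (2), 2 for the 6T-CEM day difference of the knockdown change (0) and 6 for Jurkat day 10 over day 8 (3). Day 10 over day 5 in 6T-CEM gave 28 with sh-SH2D1A (17 with sh-NC). At a silence limit of 0.2 CPM, or of 1 CPM, 1 member was silent in a single line (3 at 0.5 CPM). TRIM22, Jurkat over 6T-CEM, was -0.0128 in sh-SH2D1A against 1.21 in sh-NC. Leaving out 1 library at a time gave 1 to 10 called members in Jurkat at day 8, 3 to 7 at day 10, 1 to 8 in 6T-CEM at day 5, 7 to 9 at day 10, 13 to 19 for the mean, 0 to 1 for the line difference, 0 to 3 and 0 for the 6T-CEM and Jurkat day differences, 22 to 27 between lines, and 11 to 16 and 1 to 2 between days in 6T-CEM and Jurkat; in such fits the lone library is assumed to vary like the others. Same-numbered libraries deviated together by correlations of only 0.005 to 0.098, so the replicate numbers were not taken to pair the samples. Of 1101 recomputed member calls, 935 kept their direction and side of the threshold, 165 fell short of it and 1 reversed; the cause was not tested. IRF9, OAS3, GBP1 and TRIM25 in 6T-CEM at day 10 passed under all 10 alternatives. Members under about 1 CPM rest on few reads.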
